A study of Homo sapiens with 10 samples.

Results

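The stretches around MAB21L1 on chromosome 13 and its paralog MAB21L2 on chromosome 4 were compared in peak lists from chromatin immunoprecipitation and sequencing (ChIP-seq) of SK-N-SH cells, a cell line derived from a human neuroblastoma. Every deposited peak that touched chromosome 13 from 35.50 to 36.72 Mb (NBEA, MAB21L1 and DCLK1) or chromosome 4 from 150.98 to 151.95 Mb (DCLK2, LRBA and MAB21L2), on the hg19 build, was taken. This gave 150 of the 26482 peaks in 8 lists, 75 in each locus. The cells were grown in charcoal-stripped serum for 24 hours and then given 1 µM retinoic acid (RA) or vehicle (UT). The 4 groups were MAML3 RA, MAML3 UT, RARα RA and RARα UT, with 2 lists each, and all came from cells that the labels call control cells, with no genetic change named. The windows were chosen by the positions and treatments of the listed peaks themselves. All counts and ranks of peaks in them are therefore descriptions and were not tested.

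MAB21L1 and MAB21L2 are vertebrate relatives of the nematode gene mab-21. Both encode closely similar proteins with a nucleotidyltransferase fold, and in mice both are needed for the developing eye. Each lies inside an intron of a larger gene and is transcribed against it. The host of MAB21L1 is NBEA, which encodes neurobeachin, a protein that helps bring receptors to synapses. The host of MAB21L2 is LRBA, another gene of the BEACH-domain family, whose product protects the immune receptor CTLA4 from degradation. Next to each host is a gene for a doublecortin-like kinase that binds microtubules, DCLK1 beside NBEA and DCLK2 beside LRBA. Gene order in RefSeq (GRCh38.p14) is NBEA, MAB21L1, DCLK1 on chromosome 13 and DCLK2, LRBA, MAB21L2 on chromosome 4, with each MAB21L gene inside its host, so that the loci run in opposite directions. Retinoic acid binds the receptor RARα, which pairs with RXR on DNA and exchanges corepressors for coactivators. MAML3 belongs to the mastermind-like coactivators, which are best known from the Notch pathway, where they join the complex of RBPJ and the Notch intracellular domain.

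Positions of MAB21L1 (36.048 to 36.051 Mb) and MAB21L2 (151.503 to 151.506 Mb) were known to 1 kb on hg19, and sites are placed by the distance of their centre from the centre of the MAB21L gene. Distances are positive towards the DCLK gene, which turns chromosome 4 round. No hg19 annotation was used here, so no site was assigned to an exon, an intron or a promoter.

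The lists differ in length. The MAML3 RA lists held 7532 (RA 1) and 6230 peaks (RA 2), and the MAML3 UT lists 2222 (UT 1) and 6759 (UT 2). The RARα RA lists held 1103 and 1064 peaks, and the RARα UT lists 1321 and 251. By the tags in the list names, both MAML3 UT lists may be 1 library sequenced on separate lanes, and the list of 251 peaks is tagged as merged. The labels do not say whether replicates came from separate cultures. The sources used here do not give the read depth, so the length of a list is the only sign here of how much each gave. A position outside a list may still be bound.

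Promoter sequence was printed for the starts closest to each MAB21L gene among the RefSeq entries, to show the paralogous neighbourhoods that the sites surround. Of the 6 genes, 5 matched, with 10 promoter entries, all but MAB21L2. MAB21L1 and an NBEA transcript start in opposite directions from nearby bases, with 119 bases between their starts. This stretch is shown on the strand of MAB21L1, with an E-box (CANNTG) in capitals. For LRBA, the 250 bases before its start inside the gene are shown, with the RBPJ core TGGGAA in capitals. Both are 5′ to 3′ on the minus strand of GRCh38.p14.
MAB21L1 to NBEA, chr13:35476690-35476808: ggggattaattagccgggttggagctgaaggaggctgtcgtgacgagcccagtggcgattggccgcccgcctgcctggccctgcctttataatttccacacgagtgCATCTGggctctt
LRBA, chr4:150579890-150580139: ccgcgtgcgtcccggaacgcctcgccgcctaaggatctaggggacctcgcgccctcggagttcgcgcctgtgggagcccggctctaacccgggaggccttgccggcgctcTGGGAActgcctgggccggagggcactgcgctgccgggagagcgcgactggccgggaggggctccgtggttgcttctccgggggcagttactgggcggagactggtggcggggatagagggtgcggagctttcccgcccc

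Both strands of all promoter entries were searched for AGGTCA, the hexamer that retinoic acid receptors bind in pairs, and for TGGGAA and CANNTG. No overlap between these motifs was removed. AGGTCA was in 2 of the 10 entries (1 of DCLK1 and 1 of LRBA), against 13.8% of 35116 entries in all. TGGGAA was in 4 of the 10 (NBEA, LRBA and 2 of DCLK1), against 24.0%. CANNTG was in 7 of the 10, against 68.7%. The stretch between MAB21L1 and NBEA held neither AGGTCA nor TGGGAA. These letters describe the windows and are no binding sites, and because the build differs from that of the peaks, no peak was placed on them.

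MAML3 had more listed peaks with retinoic acid than without in both loci, as far as the number of peaks per list goes. In the MAB21L1 locus the MAML3 RA lists held 21 and 24 peaks, against 6 and 14 for MAML3 UT (mean 22.5 ± 2.12 against 10.0 ± 5.66, SD, n = 2 each). In the MAB21L2 locus they held 21 and 21, against 2 and 19 (mean 21.0 ± 0 against 10.5 ± 12, SD, n = 2 each). By these counts the RA and UT lists did not overlap in either locus, but in the MAB21L2 locus the longer UT list came within a few peaks of the RA lists. As shares of each list, the MAB21L1 locus held 0.279 and 0.385% of the MAML3 RA peaks and 0.270 and 0.207% of the UT peaks. The shares of RA 1 and UT 1 were thus nearly equal there, with 6 of 2222 peaks in UT 1. The MAB21L2 locus held 0.279 and 0.337% of the RA peaks, against 0.0900 and 0.281% of the UT peaks. Here the share of UT 2 was slightly above that of RA 1, so that by shares the groups overlapped. RARα had 3 and 4 peaks with RA, against 3 and 0 in untreated cells, in the MAB21L1 locus, and 4 and 3 against 5 and 0 in the MAB21L2 locus. The RARα groups overlapped in both loci. Each SD is a spread between 2 lists. Both MAML3 UT lists may be 1 library, so their SD need not show a spread between cultures. An exact two-sided permutation test of 2 lists against 2, which would take the lists as independent, has a smallest p of 0.33.

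**Figure D1:**
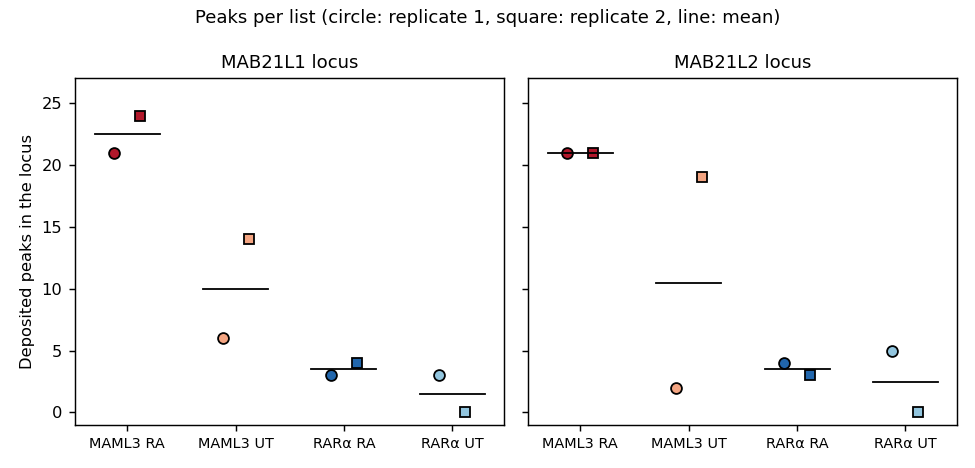
Number of deposited peaks (y axis) in the MAB21L1 locus (left) and the MAB21L2 locus (right) for each list, with a circle for replicate 1, a square for replicate 2 and a line for the group mean. MAML3 RA lists held 21 to 24 peaks, MAML3 UT lists 2 to 19, and RARα lists at most 5.

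Peaks of the 4 MAML3 lists that shared 1 bp or more were merged into sites. The MAB21L1 locus held 28 MAML3 sites and the MAB21L2 locus 26, or 23.0 and 26.8 sites per Mb, against 3.49 per Mb over the listed range of all chromosomes. Both windows were chosen for their sites, so this density is no separate result. The sites did not spread over the whole windows. In the MAB21L1 locus the outer 266 kb on the side away from DCLK1 had no peak in any of the 8 lists, and in the MAB21L2 locus the outer 255 kb on the side away from DCLK2 had none. By gene order and strand, that is the side where the host genes NBEA and LRBA start. On the DCLK side the outer 73.3 kb of the MAB21L1 locus and the outer 148 kb of the MAB21L2 locus had none either. Of the MAML3 sites, 19 of 28 and 20 of 26 lay on the DCLK side of the MAB21L gene, which makes up 55.0% and 54.1% of the windows. The farthest were at -283.3 and +597.0 kb from MAB21L1 and at -190.0 and +376.2 kb from MAB21L2. Just outside the windows, the next MAML3 sites of chromosome 13 were 456 kb before (35043498 to 35043697, in RA 1 alone) and 494 kb after (37213848 to 37214300, in both RA lists and UT 2). On chromosome 4 the next site before the window was only 8.69 kb away (150970900 to 150971311) and was held by both RA lists and no UT list, with a mean percentile of 25.8. The next after it, 140 kb away (152090499 to 152090798), was held by both UT lists and no RA list. The windows' limits therefore leave out 1 gained and 1 lost site next to the MAB21L2 locus, while the MAB21L1 locus stood apart from its neighbours.

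**Figure D2:**
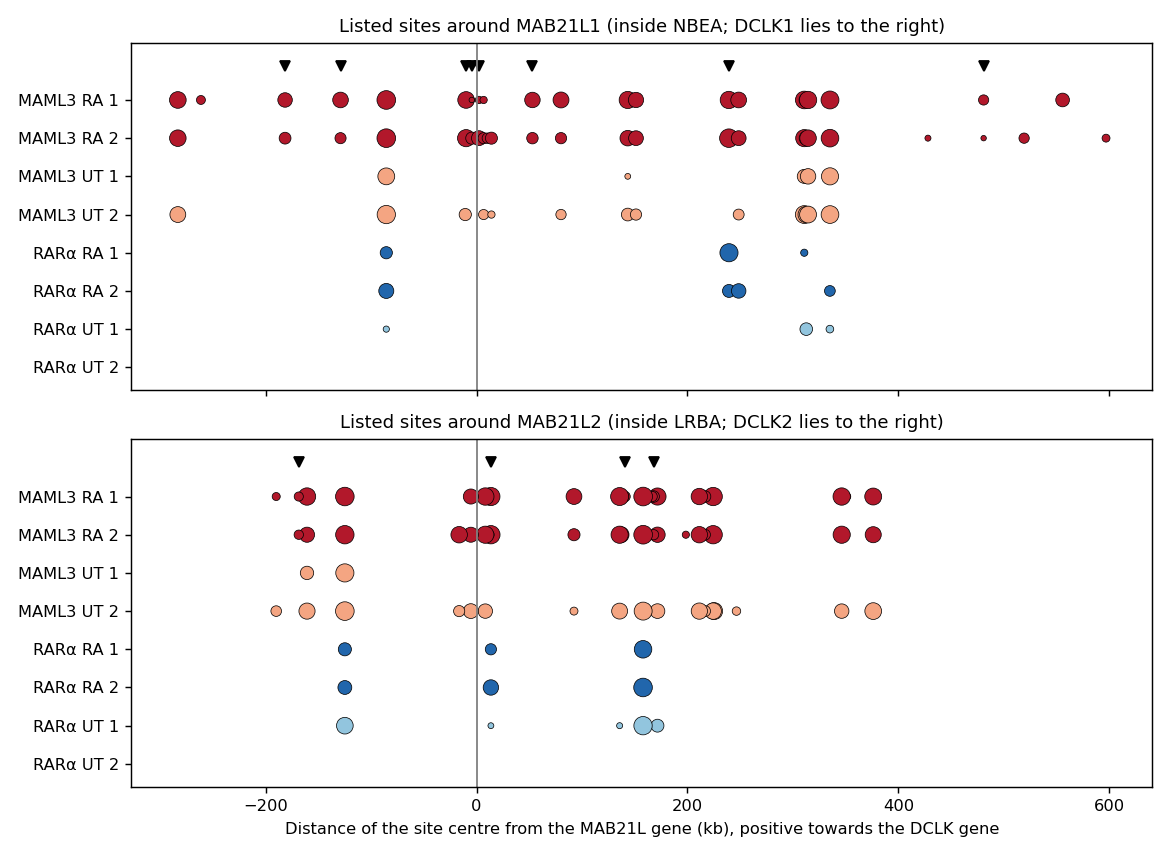
Sites of the MAB21L1 locus (top) and the MAB21L2 locus (bottom), by distance from the MAB21L gene in kb (x axis), for each of the 8 lists (rows). A larger circle stands for a higher score percentile within its list, and black triangles mark the 8 and 4 MAML3 sites held by both RA lists and neither UT list. Within 20 kb of the gene, UT 1, the shortest MAML3 list, has no MAML3 site in either locus.

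A MAML3 site was called gained when it was in both RA lists and neither UT list, and lost when it was in both UT lists and neither RA list. The MAB21L1 locus had 8 gained sites of 28 (28.6%) and the MAB21L2 locus 4 of 26 (15.4%), against 9.37% of all 10251 MAML3 sites. No site was lost in either locus, against 0.683% of all sites, but UT 1 had few peaks there that could be lost. Without UT 1, 2 of 28 and 2 of 26 sites were lost, against 13.5% of all. The largest group of the MAB21L2 locus was another one. There, 12 of 26 sites (46.2%) were held by both RA lists and UT 2 but not by the short list UT 1, against 6 of 28 (21.4%) in the MAB21L1 locus and 21.9% of all sites. Held by both RA lists were 19 of 28 and 18 of 26 sites (67.9 and 69.2%), against 48.3% of all sites. These shares were part of what made the windows stand out and were not tested.

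**Figure D3:**
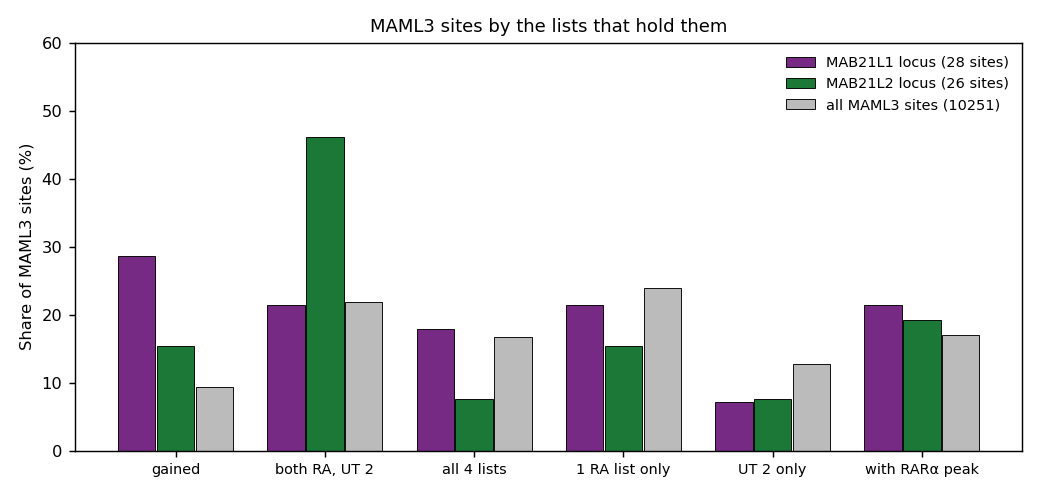
Share of MAML3 sites (y axis, %) by the lists that hold them, for the MAB21L1 locus, the MAB21L2 locus and all MAML3 sites. Gained sites made up 28.6% and 15.4% in the loci against 9.37% of all sites, and sites in both RA lists and UT 2 but not UT 1 made up 21.4% and 46.2% against 21.9%.

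The gained counts rested on UT 2. Without UT 2 they were 14 of 26 and 16 of 24, against 35.7% of all sites, and without UT 1 they stayed at 8 and 4, against 9.63%. Without RA 1 they were 12 of 26 and 6 of 25, against 21.3%. Without RA 2 they were 10 of 24 and 6 of 24, against 26.9%, so that the MAB21L2 locus was then below the share of all sites. The list names give RA 1 and UT 2 the same lane number, and RA 2 and UT 1 another. Within the first pair RA 1 held 10 of 24 and 6 of 24 sites that UT 2 lacked, against 27.7% of all sites, so that the MAB21L2 locus was below that share. In this pair UT 2 held 3 of 24 and 3 of 24 that RA 1 lacked (19.0%). Within the other pair RA 2 held 19 of 24 and 19 of 21 sites that UT 1 lacked (67.9%), and UT 1 held none that RA 2 lacked (4.29%). With each MAML3 list shortened to the 2222 peaks of highest score, the RA lists held 8 and 8 peaks in the MAB21L1 locus, against 6 and 6 in the UT lists. In the MAB21L2 locus they held 11 and 12, against 2 and 8. At this length 2 of 9 and 4 of 14 sites were gained, against 7.99% of all sites. Of these, 2 and 1 were among the 8 and 4 gained in the full lists. They are the sites at -9.9 and +239.3 kb from MAB21L1 and at +13.6 kb from MAB21L2.

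Scores are the authors' own value for each peak and are given here with the percentile within their list, since scores of different lists are on no common scale. The site at +239.3 kb from MAB21L1 (chromosome 13, 36288551 to 36289100) scored 398 in RA 1 and 1064 in RA 2, at percentiles 84.4 and 97.2, and neither UT list held it. It ranked highest in RA 2 among the gained sites of this locus, and in RA 1 too. The site at -9.9 kb (36039401 to 36039847) scored 294 and 344 in the RA lists, at percentiles 77.1 and 82.7. A UT 2 peak that neither RA list held lay 484 bp away, at 36038717 to 36038916, with a score of 125. With peaks within 1 kb merged, this site was therefore not gained, and the locus had 7 gained sites.

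The other 6 gained sites of the MAB21L1 locus ranked lower or differed between the RA lists. The site at -181.6 kb (35867648 to 35868100) had percentiles of 56.6 and 34.9 in RA 1 and RA 2, the site at -129.0 kb (35920248 to 35920700) 67.0 and 30.0, and the site at +53.0 kb (36102348 to 36102750) 65.5 and 32.3. These 3 were higher in RA 1. The sites at -4.5 kb (36044751 to 36045150) and +2.3 kb (36051698 to 36051950) were low in RA 1, at 1.25 and 8.83, and higher in RA 2, at 37.5 and 60.2. The site at +480.9 kb (36530251 to 36530597) was low in both, at 24.1 and 1.12. Over the 8 gained sites the median percentile was 61.0 in RA 1 and 36.2 in RA 2, against 40.6 and 37.1 for the 961 gained sites of the whole series.

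The site at +2.3 kb was the one nearest to MAB21L1. It began 698 bp beyond the end of the gene as known to 1 kb. MAB21L1 is read from the minus strand in RefSeq, so this end holds its start. Its scores were 77.8 in RA 1, where it ranked near the bottom, and 173 in RA 2. Within 20 kb of MAB21L1, a distance set after the data were seen, the RA lists held 4 and 6 MAML3 peaks, against 0 and 3 in the UT lists. The whole lists held 7532 and 6230 peaks with RA, against 2222 and 6759 for UT, so these counts also follow list length. None of the near peaks was above the percentile of the site at -9.9 kb. No RARα list held a peak within these 20 kb.

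The leading gained site of the MAB21L2 locus stood near its gene. It lay at +13.6 kb (chromosome 4, 151490562 to 151491149) and scored 704 in RA 1 and 747 in RA 2, at percentiles 93.4 and 94.9, with no peak in UT 1 or UT 2. The remaining 3 were low in both RA lists. The site at +167.9 kb (151336412 to 151336849) had percentiles of 33.3 and 24.3, the site at +140.8 kb (151363550 to 151363849) 25.7 and 6.15, and the site at -168.6 kb (151672900 to 151673211) 17.8 and 19.0. Their scores were between 75.0 and 107.

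Around the leading site, MAB21L2 had further MAML3 sites that UT 2 held too. The site at +8.3 kb (151495950 to 151496511) had scores of 405 and 338 in RA 1 and RA 2, against 177 in UT 2. At -5.4 kb (151509612 to 151510249), the site nearest to the gene at 3612 bp from it, the scores were 187 and 178 in the RA lists, against 193 in UT 2. The site at -16.5 kb was held by RA 2 and UT 2, and the one at +12.1 kb by RA 2. Within 20 kb of MAB21L2 the RA lists held 3 and 5 MAML3 peaks, of 7532 and 6230 in all. The UT lists held 0 and 3 there, of 2222 and 6759 in all. Beside MAB21L1, the near sites of MAB21L2 were as few in the UT lists. In RA 1 their percentiles were 61.9 to 93.4, against 1.25 to 77.1 near MAB21L1, and in RA 2 they were 20.6 to 94.9, against 24.8 to 82.7.

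Sites in all 4 MAML3 lists were 5 of 28 in the MAB21L1 locus and 2 of 26 in the MAB21L2 locus (17.9 and 7.69%, against 16.8% of all sites). In the MAB21L1 locus the first was at -85.6 kb (35963638 to 35964150), with scores of 1730 and 1420 in the RA lists, against 262 and 849 in the UT lists. It was near the top of every list but UT 1, where its percentile was 79.1. The other 4 lay towards DCLK1. The site at +335.2 kb (36384438 to 36385050) had percentiles of 90.6 and 87.6 in the RA lists, against 82.2 and 88.1 in the UT lists. The sites at +310.8 kb (36360017 to 36360550) and +314.4 kb (36363691 to 36364150) stood within a few kb of each other, with a site of 3 lists between them at +312.7 kb (36361998 to 36362416). The last, at +143.4 kb (36192701 to 36193166), was low in UT 1, at a percentile of 2.43.

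In the MAB21L2 locus both sites of all 4 lists lay on the side away from DCLK2. The site at -124.9 kb (151629112 to 151629699) had scores of 1275 and 865 in the RA lists, against 520 and 1497 in the UT lists, with percentiles from 93.1 to 98.3. The site at -160.8 kb (151665000 to 151665511) had percentiles of 84.7 and 62.3 with RA, against 46.9 and 72.0 without. These were all the peaks that UT 1 had in the MAB21L2 locus. On the DCLK2 side, where 20 sites lay, UT 1 had none.

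**Figure D4:**
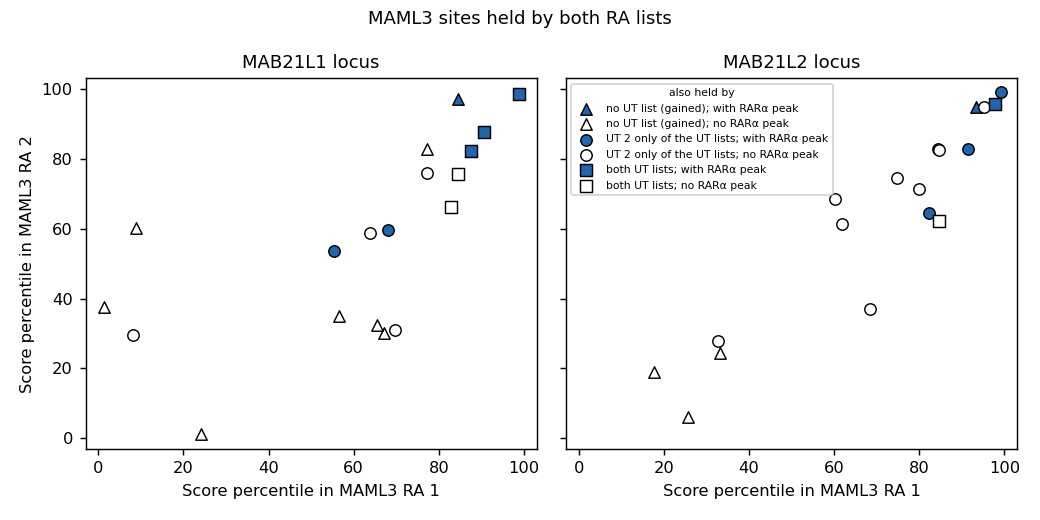
Score percentile in MAML3 RA 1 (x axis) and RA 2 (y axis) of the sites held by both RA lists, 19 in the MAB21L1 locus and 18 in the MAB21L2 locus. Triangles are gained sites, circles sites also in UT 2, squares sites in all 4 lists, and blue fill marks a RARα peak in at least 1 list; the blue symbols lie above percentile 50 in both lists.

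The MAML3 site of the MAB21L2 locus that ranked highest in both RA lists was missing from UT 1. It lay at +158.0 kb (151346249 to 151346849) and scored 1984 and 1658 in the RA lists, at percentiles 99.2 and 99.0, against 628 in UT 2, at 91.1. In UT 2 the site at -124.9 kb was above it. The site at +224.4 kb (151279862 to 151280349) scored 834 and 737 in the RA lists, against 301 in UT 2. A UT 2 peak of higher score, 367, stood 513 bp from it at +225.3 kb and was in neither RA list. The sites at +135.7 kb (151368550 to 151369061), +346.3 kb (151157849 to 151158649) and +376.2 kb (151128049 to 151128561) had percentiles of 91.4 and 82.9, 84.4 and 82.7, and 80.0 and 71.3 in RA 1 and RA 2, against 69.8, 56.0 (the higher of 2 peaks) and 77.9 in UT 2. A row of such sites, in both RA lists and UT 2, thus ran through the DCLK2 side of this locus.

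Each of the 11 RARα sites of the loci, 6 around MAB21L1 and 5 around MAB21L2, lay on a MAML3 peak of at least 1 list, as did 84.4% of all 2120 RARα sites. Of the MAML3 sites, 6 of 28 and 5 of 26 had a RARα peak (21.4 and 19.2%, against 17.0% of all MAML3 sites), which is close to the background. All 11 were held by both MAML3 RA lists. Their mean MAML3 percentile over the lists that held them was between 52.0 and 92.8 around MAB21L1 (median 82.4) and between 68.2 and 96.5 around MAB21L2 (median 94.2). For the sites without a RARα peak the medians were 39.9 and 39.0. Ranks of sites with and without a RARα peak, and how many such sites both RA lists held, were not computed over all MAML3 sites. No trait particular to these loci can therefore be read from them. A narrower class was counted over all sites, held by both MAML3 RA lists and with a RARα peak in at least 1 RA list. It made up 5 of 28 and 3 of 26 sites (17.9 and 11.5%), against 11.1% of all MAML3 sites. Among gained MAML3 sites, 1 of 8 and 1 of 4 had a RARα peak, against 12.7% of the 961 gained sites of the whole series. They were the sites at +239.3 kb from MAB21L1 and at +13.6 kb from MAB21L2.

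These leading gained MAML3 sites differed in their RARα peaks. At +239.3 kb from MAB21L1 (RARα site 36288607 to 36289106) RARα scored 374 in RA 1 and 108 in RA 2, at percentiles 92.9 and 43.7, and neither UT list held it. It was the only gained RARα site of both loci, 1 of 6 and 0 of 5, against 5.42% of all RARα sites. At +13.6 kb from MAB21L2 (151490652 to 151491049) RARα scored 92.9 (the higher of 2 peaks in RA 1) and 154 with RA, at percentiles 30.6 and 64.7, against 71.6 in UT 1, at 2.57. Since UT 1 held it just above the lowest score of the list, this site was gained for MAML3 but not for RARα. A RARα site could not be called lost in either locus, because UT 2 had no peak there (0.472% of all RARα sites were lost). Without UT 2, 1 of 6 and 2 of 5 sites were lost, against 25.2% of all.

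RARα without a gain stood at the sites of highest MAML3 rank. At +157.9 kb from MAB21L2 (151346350 to 151346901) RARα scored 260 and 614 with RA, against 419 in UT 1, with percentiles of 86.3 and 98.1 against 95.2. Of the 11 RARα sites it was the highest in RA 2 and UT 1, and in RA 1 the site at +239.4 kb from MAB21L1 was above it. At -124.9 kb (151629200 to 151629591) the scores were 109 and 120 with RA, against 192 in UT 1. At -85.6 kb from MAB21L1 (35963751 to 35964006) they were 101 and 145 with RA, against 72.4 in UT 1. Sites in both RA lists and UT 1 but not UT 2 were 1 of 6 and 3 of 5 in the loci, against 13.6% of all RARα sites. The UT 1 percentile lay between those of the RA lists at +157.9 kb, above both at -124.9 kb and below both at -85.6 kb and at +13.6 kb.

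The remaining RARα sites were in 1 or 2 lists. Around MAB21L1, the site at +248.6 kb (36297978 to 36298204) was in RA 2 alone with a score of 131, the site at +310.8 kb (36360157 to 36360356) in RA 1 alone with 74.1, and the site at +312.7 kb (36362151 to 36362323) in UT 1 alone with 107. The site at +335.1 kb (36384551 to 36384736) scored 87.4 in RA 2, against 75.9 in UT 1. Around MAB21L2, the sites at +171.6 kb (151332719 to 151332988) and +135.7 kb (151368700 to 151368802) were in UT 1 alone, with 109 and 72.1. In the MAB21L1 locus the site at +312.7 kb, held by UT 1 alone, lay between sites that RA lists held. The list of 251 peaks, RARα UT 2, had no peak in either locus, so every untreated RARα peak here came from UT 1 and no RARα site was in all 4 lists, against 6.75% of all. Without UT 1, 2 of 5 and 3 of 3 RARα sites were gained, against 25.0% of all.

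**Figure D5:**
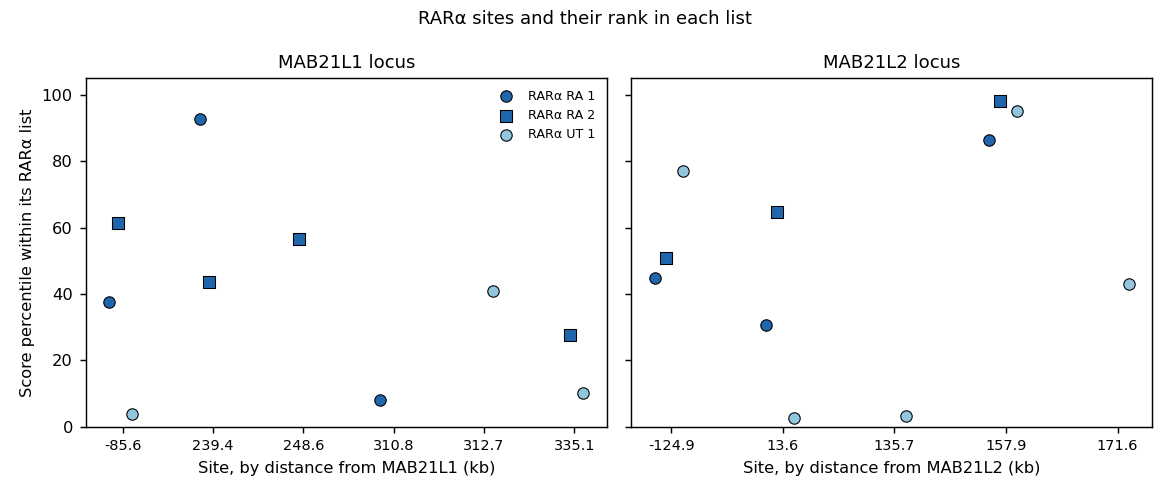
Score percentile within its list (y axis) of each RARα site of the MAB21L1 locus (6 sites, left) and the MAB21L2 locus (5 sites, right), ordered by distance from the MAB21L gene in kb (x axis). Dark symbols are RA 1 and RA 2, light symbols UT 1, and UT 2 had no peak; the site at 239.4 kb from MAB21L1 has no light symbol, and the site at 157.9 kb from MAB21L2 is high in all 3 lists.

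Side by side, the loci had like numbers of MAML3 sites (28 and 26), of sites in both RA lists (19 and 18) and of RARα sites (6 and 5). The windows were chosen by these peaks and differ in length (1.22 and 0.97 Mb), so the like counts are no separate result. Both loci had the longer stretch without a peak at the end where the host gene starts. Each locus had a site in all 4 MAML3 lists with RARα peaks on the side away from DCLK. It lay at -85.6 kb from MAB21L1 (percentile 79.1 in UT 1, higher in the other lists) and at -124.9 kb from MAB21L2. Around MAB21L1, sites of all 4 lists with a RARα peak also lay towards DCLK1, at +310.8 and +335.2 kb. Each locus had 1 gained MAML3 site with RARα, at +239.3 and +13.6 kb. These were 1 of 8 and 1 of 4 gained sites, against 12.7% of the gained sites of the whole series. The loci differed in where the ranks lay. Around MAB21L2 the leading gained site stood within 20 kb of the gene, and around MAB21L1 it stood far towards DCLK1. Gained sites near the gene were not limited to MAB21L2. Within 20 kb, 3 of 7 MAML3 sites were gained at MAB21L1 and 1 of 5 at MAB21L2, against 9.37% of all sites. Of these, the site at -9.9 kb from MAB21L1 had percentiles of 77.1 and 82.7 in the RA lists, but was not gained with peaks within 1 kb merged. The sites at -4.5 and +2.3 kb were near the bottom of RA 1, at percentiles 1.25 and 8.83. Sites of all 4 lists lay mostly towards DCLK1 on chromosome 13 (4 of 5) and on the other side on chromosome 4 (0 of 2 towards DCLK2). This last contrast rests on the short list UT 1, which had only 2 peaks in the MAB21L2 locus. Like distances do not show like sequence, and the genomic sequences under the peaks were not aligned here.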

How the data were processed

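ChIP-seq peak lists of 8 immunoprecipitate samples were used, 1 list per sample, with groups and replicate numbers from the labels. Per the labels, libraries were sequenced on the Genome Analyzer, and the 2 input samples were not analysed here. Per the submitters' processing notes the build was hg19 and the tools included bedtools, MACS and BWA 0.5.9, with no role for each. The sources used here do not give the threshold, the control or the filtering that the list names mention. The score of each peak was deposited by the authors and was used only to rank peaks within a list. Peak edges entered the merging, the calls and the gaps in bp between sites. Peak widths were not compared, because MAML3 RA peaks had widths in steps of 50 bp (99.9 and 100% of peaks). MAML3 UT peaks mostly or partly did not (23.8 and 66.6% in such steps). In the RARα lists 20.7 to 38.1% of widths were in such steps. The MAML3 RA lists may thus have been made in another way than the rest. In the MAML3 counts and the gained and lost calls, such a difference cannot be told apart from the treatment.

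Peaks were merged over the whole genome at 1 bp overlap, for each antibody apart, with Python 3.11.15, numpy 2.4.6 and matplotlib 3.10.9. A percentile is the share of a list's peaks with the same or a lower score. Merging and calls were tested on simulated data (2000 sites, 100% called as made). The members, windows and rules were chosen with earlier results of these data known, so no test was made. An n of 2 counts lists, which need not be separate libraries. Sites named are all gained and lost MAML3 sites, those in all 4 lists (up to 5 per locus), all RARα sites and the site nearest to the MAB21L gene. Other sites named, including those in both RA lists and UT 2, were chosen after their values were seen. Planned protein identities were not computed here. Alternatives were a 50% overlap, merging within 1 kb, the highest 50% of scores, equal lists, each replicate left out, and sites within 250 kb of the gene. Pairs that share a lane tag were added after the data were seen.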

Additional observations from a re-analysis of the deposited data

How the results depend on the processing

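No paired analysis was possible because no model was fitted that a block for the replicate number could enter. Pairs of lists that share a lane tag are given at the end. A 50% overlap and merging within 1 kb moved no count by over 1.5 times. In the highest 50% of scores, gained MAML3 sites were 5 of 16 around MAB21L1 and 2 of 16 around MAB21L2 (10.2% of all sites), RARα gained sites around MAB21L1 were 0 of 3 (7.18%), and MAML3 sites with a RARα peak were 3 and 3 (17.4%). Peaks summed over a group then were 27 for MAML3 RA around MAB21L1, 10 and 13 for MAML3 UT around MAB21L1 and MAB21L2, 3 and 4 for RARα RA, and 0 and 2 for RARα UT. In lists of equal length, gained sites around MAB21L1 were 2 of 9 for MAML3 (7.99%) and 0 of 1 for RARα (8.33%), MAML3 sites with RARα were 1 and 1 (12.1%), and summed peaks around MAB21L1 and MAB21L2 were 16 and 23 for MAML3 RA, 12 and 10 for MAML3 UT, 1 and 2 for RARα RA, and 0 and 1 for RARα UT. These settings keep fewer peaks by construction. Within 250 kb of MAB21L1 there were 3 MAML3 sites with RARα, 28 MAML3 RA, 11 MAML3 UT and 1 RARα UT peaks. With each replicate left out in turn, gained MAML3 sites ranged from 8 to 14 around MAB21L1 and from 4 to 16 around MAB21L2 (9.63 to 35.7% of all sites), lost ones from 0 to 2 and 0 to 2 (1.25 to 13.5%), gained RARα sites from 1 to 3 and 0 to 3 (5.98 to 25.3%), lost ones from 0 to 1 and 0 to 2 (1.31 to 25.2%), and MAML3 sites with RARα from 5 to 6 and 3 to 5 (12.8 to 19.7%). The highest gained MAML3 counts were without UT 2, the lost MAML3 sites appeared without UT 1, and the lost RARα sites without RARα UT 2. Within lane tag 3, MAML3 lost sites were 3 and 3 of 24 each (19.0% of all), RARα gained sites around MAB21L1 2 of 5 (25.1%), and RARα lost sites 1 of 5 and 2 of 5 (40.4%). Within lane tag 7, gained MAML3 sites were 19 of 24 and 19 of 21 (67.9%). Read depth is unknown and sets no precision here.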
